A study of Arabidopsis thaliana with 4 samples.

Results

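The ketone 3-hepten-2-one was set directly against the aldehyde crotonaldehyde in Arabidopsis thaliana exposed to the vapour of either compound for 30 min. The comparison used 2 of the 4 arrays of the series, 1 for each volatile, and took a gene as measured where its probe was well above background on both arrays. That held for 18661 of the 25426 genes that the array's probes could be matched to. The whole study held 4 one-colour Agilent arrays, and the other 2 carried (E)-2-pentenal and the solvent control.

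The 3-hepten-2-one group was wild-type Columbia-0 labelled as seedlings, enclosed for 30 min with a paper soaked in the ketone at a nominal 10 µM. The crotonaldehyde group was the same ecotype, dose and time with the aldehyde instead. The 2E-pentenal group received that aldehyde in the same way, and the acetonitrile group received the solvent that carried all the volatiles. For every group the labels give growth at 23 °C with 14 h light and 10 h dark, and 25 °C for the exposure. Each array held RNA pooled from at least 6 plants, so plant-to-plant spread was not recorded, and no group had a second array. No p-value, standard error or interval could therefore be given for any difference, and a gene was singled out by size alone, at 2-fold or more in either direction. In these pools, fewer cells of a type and less RNA per cell cannot be told apart.

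Both volatiles hold a carbon double bond next to a carbonyl group, which makes them reactive electrophiles that bind thiols such as the cysteine of glutathione and of proteins. They differ in the carbonyl, a ketone in 3-hepten-2-one and an aldehyde in crotonaldehyde, and 3-hepten-2-one also has the longer carbon chain, so a difference between them cannot be tied to either feature alone. Short reactive carbonyls of this kind arise in wounded and stressed leaves, and in Arabidopsis they are known for switching on heat shock proteins, glutathione transferases and other detoxification genes within minutes to hours. One pair of compounds was compared here, at matched nominal dose and time.

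The crotonaldehyde array stood apart from the others before any gene was considered. It was on slide 2 and in scan 2, while the other 3 arrays shared slide 1 and scan 1, so slide and volatile cannot be told apart in any value that follows. The labels give no plant age or harvest time for single arrays, and whether the plants of the crotonaldehyde array matched the others in these was not tested. Processed signal reached a 75th percentile of 1531 with 3-hepten-2-one and 1048 with crotonaldehyde, with 1518 for (E)-2-pentenal and 1667 for acetonitrile. Each array was therefore set to its own 75th percentile, and signals are given below as scaled signal, in which that percentile is 1000. Spots well above background made up 74.4% of the 3-hepten-2-one array and 72.6% of the crotonaldehyde array. By the same 2-fold rule, 4.66% of genes were higher and 4.26% lower after 3-hepten-2-one than after (E)-2-pentenal, which shared a slide, or 8.92% in all. Between crotonaldehyde and (E)-2-pentenal, which did not, 5.75% were higher and 13.5% lower after crotonaldehyde, or 19.3% in all. No gene with a scaled signal of 1000 or more on the other 3 arrays was below background in all its probes on the 3-hepten-2-one array (0 genes). There were 7 such genes on the crotonaldehyde array, 0 for (E)-2-pentenal and 5 for acetonitrile.

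Leaf markers were bright on both arrays. The 4 photosynthesis genes of that list, which included the small subunit of Rubisco, summed to 1124489.9 after 3-hepten-2-one and 1174130.3 after crotonaldehyde, and none differed by 2-fold. The wider light-harvesting list, described below, was less level. There 7 of 20 genes were at least 2-fold higher after 3-hepten-2-one and 1 was lower. Root markers were low, with 6 of 12 measured and summing to 1389 after 3-hepten-2-one and 617 after crotonaldehyde. The 3 root genes past 2-fold were all higher after 3-hepten-2-one, namely SHR with a log2 difference of 1.76, CASP2 with 1.29 and SCR with 1.02. Floral markers were near background, with 2 of 6 measured and AG at 44.8 after 3-hepten-2-one and 21.8 after crotonaldehyde. Guard cell markers lay within 2-fold, whereas the trichome regulator GL2, a homeodomain factor, had a scaled signal of 685 after 3-hepten-2-one and 34.4 after crotonaldehyde. The other measured member past 2-fold was IRX3, a cellulose synthase of vascular secondary walls, with a scaled signal of 245 after 3-hepten-2-one and 76.0 after crotonaldehyde. The other trichome marker of the list, the MYB factor GL1, had 339 after 3-hepten-2-one and was not well above background after crotonaldehyde, at least 33.7-fold lower there. GL1 was chosen after its values were seen. The part of tissue make-up in the differences below was not tested.

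More genes were higher after 3-hepten-2-one than lower. Of the 18661 genes, 2948 (15.8%) were at least 2-fold higher after 3-hepten-2-one than after crotonaldehyde and 1836 (9.84%) were at least 2-fold lower, so that 25.6% passed the size rule and 61.6% of those were higher. When each array was set to its median in place of its 75th percentile, the median of all genes moved by -0.30 and the split turned to 2227 higher and 3204 lower, or 41.0% higher. The 8 of 10 spike-in control probes well above background on both arrays differed by 0.59 to 1.27 on the log2 scale, all 8 higher on the 3-hepten-2-one array. Setting both arrays to the median of these 8 moved all genes by -0.98 and gave 1147 higher and 9673 lower, or 10.6% higher. Which side held more genes therefore depended on the scaling, and differences below are relative to the 75th percentile. The log2 difference over all genes had a median of -0.06, with quartiles at -0.50 and 0.56 and extremes of -8.07 and 9.20. In the percentile scaling, large differences leaned to the higher side, with 403 genes (2.16%) at least 8-fold higher and 130 (0.697%) at least 8-fold lower. Whether that lean holds under the other scalings was not tested. The only measure of technical spread was the repeated spots of 18 probes, for which the log2 difference varied with an SD of 0.12 within the arrays, and this covers neither hybridization nor plants.

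Most genes past 2-fold had crotonaldehyde as the extreme among the 4 arrays. Of the genes higher after 3-hepten-2-one, crotonaldehyde was the lowest array in 89.7% and 3-hepten-2-one the highest in 58.4%. Among the genes lower after 3-hepten-2-one, crotonaldehyde was the highest array in 90.2% and 3-hepten-2-one the lowest in 74.5%. Over all genes these shares were 34.7%, 23.4%, 39.2% and 29.6% in the same order. Because the members were picked for a gap between these 2 arrays, one of the pair tends to be an extreme, and the shares are a description only. Dim genes passed 2-fold more often than bright ones, mainly in the upward direction. In the second decile of genes by brightness 28.8% were higher and 11% lower after 3-hepten-2-one, while in the brightest decile 10.2% were higher and 14.4% lower.

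**Figure D1:**
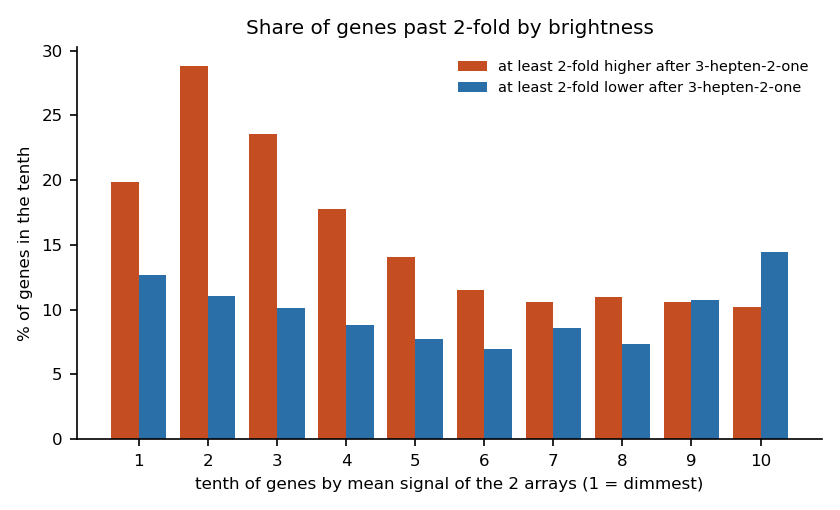
Share of genes at least 2-fold higher or lower after 3-hepten-2-one than after crotonaldehyde in each decile of the 18661 measured genes, ordered by mean signal of the 2 arrays (y axis in percent, 1 array per volatile). Higher calls peak at 28.8% in the second decile and reach 10.2% in the brightest, where lower calls reach 14.4%.

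Where a gene had a second probe, that probe usually gave the same call. Of 1168 genes past 2-fold with 2 measured probes, 933 (79.9%) passed 2-fold the same way in the second probe and 25 had the opposite sign. The brightest probe of a gene gave its value throughout.

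The largest upward differences reached 588-fold and lay in genes nearly dark on the crotonaldehyde array. PDF1, a protodermal factor expressed in the outer cell layer, had a scaled signal of 11968 after 3-hepten-2-one and 20.3 after crotonaldehyde, against 10295 after (E)-2-pentenal and 12132 in acetonitrile. Its log2 difference was 9.20, but its 3 measured probes ranged down to 3.94. PYK10, the main beta-glucosidase of endoplasmic reticulum bodies, had 31450.0 after 3-hepten-2-one and 56.4 after crotonaldehyde, a log2 difference of 9.12 with a probe range of 6.86 to 9.46. Both genes were bright on the (E)-2-pentenal and acetonitrile arrays as well, so only the crotonaldehyde array was low. The next 3 were loci without a gene name in the reference table, AT2G33850 at 12457 after 3-hepten-2-one and 23.3 after crotonaldehyde, AT4G29030 at 13073 after 3-hepten-2-one and 48.5 after crotonaldehyde and AT3G05727 at 1845 after 3-hepten-2-one and 12.6 after crotonaldehyde. NATA1, an acetyltransferase that acts on ornithine, had 23311 after 3-hepten-2-one and 182 after crotonaldehyde. The lipid transfer protein LTP6 was 79.5-fold higher after 3-hepten-2-one and the thionin THI2.2 was 75.4-fold higher. The other members of the highest 10, the auxin-conjugating enzyme DFL1 and the clock factor LHY, are described with their groups.

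Among genes lower after 3-hepten-2-one the largest difference belonged to DJC76 (AT5G23240), a DnaJ-domain protein, with 106 after 3-hepten-2-one and 28394 after crotonaldehyde. That was 269-fold, and the gene stood at 5693 after (E)-2-pentenal and 4986 in acetonitrile. The clock component ELF4 followed at 248-fold and AT1G07050 at 106-fold. JMJD5, a jumonji-domain protein tied to the clock, had 143 after 3-hepten-2-one and 9752 after crotonaldehyde. AT1G13470 had 20.5 after 3-hepten-2-one and 1380.0 after crotonaldehyde, AT2G14247 had 64.5 after 3-hepten-2-one and 3193 after crotonaldehyde, and the cadmium-resistance membrane protein PCR1 had 79.5 after 3-hepten-2-one and 3894 after crotonaldehyde. COR15B, GRP7 and ELF4 of this group were low on the 3-hepten-2-one array and high on the 3 others. AT2G14247, at 98.0 after (E)-2-pentenal and 122 in acetonitrile, was high on the crotonaldehyde array alone, as was bHLH38.

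The clearest contrast between gene groups was that of the circadian clock, whose morning and evening genes went opposite ways. In the plant clock, the morning MYB factors CCA1 and LHY repress evening genes, the evening complex of ELF3, ELF4 and LUX represses morning genes, and the PRR proteins act in sequence through the day. Of 14 measured members of the morning list, 10 were at least 2-fold higher after 3-hepten-2-one and 1 was lower, with a median log2 difference of 2.97. Of 14 measured members of the evening list, 1 was higher and 10 were lower, with a median of -2.82. Over all genes 15.8% were higher and 9.84% lower, with a median of -0.06.

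LHY had a scaled signal of 3248 after 3-hepten-2-one and 41.9 after crotonaldehyde, with 1853 after (E)-2-pentenal and 2446 in acetonitrile. CCA1 had 4265 after 3-hepten-2-one and 150.4 after crotonaldehyde, a log2 difference of 4.83 with its 3 probes between 3.80 and 4.83. The light-induced coactivators LNK2 and LNK3 had 6671 and 6199.9 after 3-hepten-2-one, and 256 and 141 after crotonaldehyde. All of these were highest on the 3-hepten-2-one array and lowest on the crotonaldehyde array. The exception in direction was RVE2, a MYB-like relative of CCA1, at 321 after 3-hepten-2-one and 2109 after crotonaldehyde. PRR9, the first pseudo-response regulator of the day, had 188 after 3-hepten-2-one and was not well above background after crotonaldehyde, at least 18.6-fold lower there. RVE2 and PRR9 were chosen after their values were seen.

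Evening genes were the mirror image. ELF4 had 48.3 after 3-hepten-2-one and 11965 after crotonaldehyde, with 4555 after (E)-2-pentenal and 3526 in acetonitrile. LUX, the DNA-binding member of the evening complex, had 126 after 3-hepten-2-one and 4049 after crotonaldehyde, and its close relative BOA had 125 after 3-hepten-2-one and 2529 after crotonaldehyde. GRP7, an RNA-binding protein whose transcript peaks in the evening, had 7579.7 after 3-hepten-2-one and 394906 after crotonaldehyde, a log2 difference of -5.70. For these 4 genes the 3-hepten-2-one array was the low one, and the (E)-2-pentenal and acetonitrile arrays lay nearer to crotonaldehyde. PRR3 was not well above background after 3-hepten-2-one and had 1709 after crotonaldehyde, at least 205-fold higher there. The 1 evening-list member in the other direction was ELF4-L3, at 390.0 after 3-hepten-2-one and 51.0 after crotonaldehyde, also chosen after its values were seen. The labels give 30 min of exposure for both arrays and no clock time of harvest, so the part of harvest time in these differences was not tested.

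**Figure D2:**
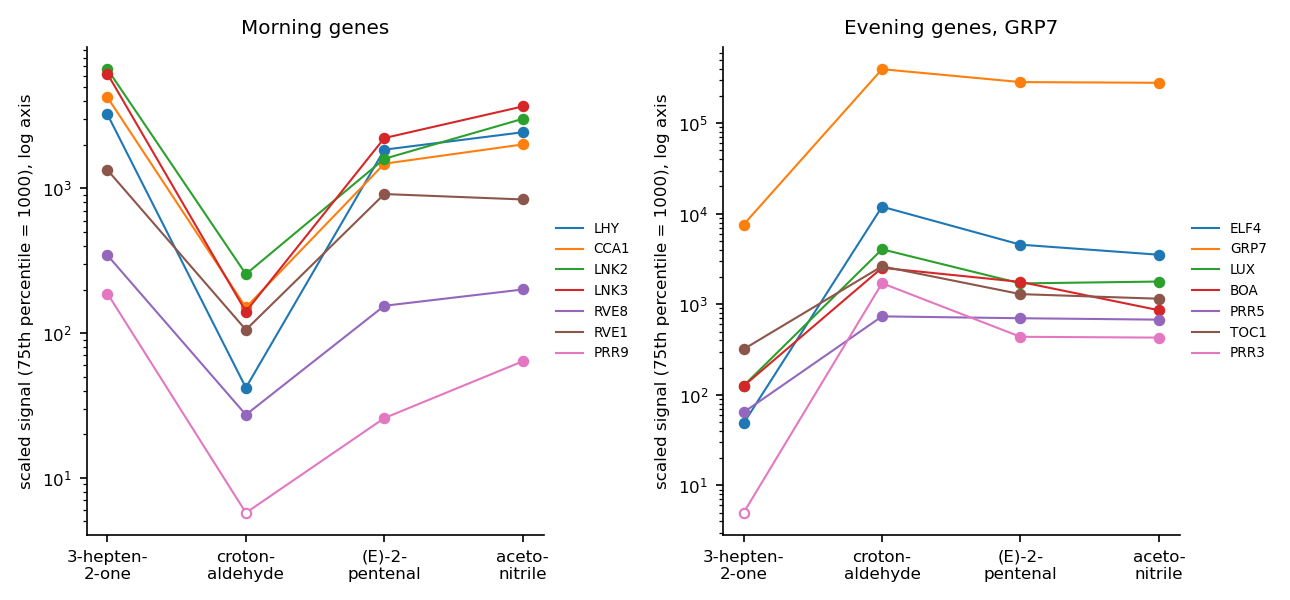
Scaled signal (log axis, each array's 75th percentile set to 1000) of 7 morning and 7 evening clock genes on the 4 arrays, 1 array per group. Filled points were well above background, open points were not, and lines join the values of a gene. The morning genes drawn are highest after 3-hepten-2-one and lowest after crotonaldehyde, whereas the evening genes drawn are lowest after 3-hepten-2-one. The genes drawn are only a part of each list. RVE2 and ELF4-L3, which went the other way, and the members within 2-fold are not drawn.

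Genes of cold and dehydration tolerance were lower after 3-hepten-2-one. This group holds COR and KIN proteins, dehydrins and LEA proteins that protect membranes and proteins during freezing or drying, under the CBF, DDF and DREB2 transcription factors. Of 19 measured members, 14 were at least 2-fold lower after 3-hepten-2-one and 2 were higher, with a median log2 difference of -2.29. Of 10 measured CBF, DDF and DREB2 factors and their relatives, 9 were lower and 0 higher, with a median of -2.65.

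COR15B, a chloroplast stroma protein that stabilizes membranes, had 1151 after 3-hepten-2-one and 73122 after crotonaldehyde, with 23524 after (E)-2-pentenal and 18900.0 in acetonitrile. The dehydrin RAB18 had 883 after 3-hepten-2-one and 24079 after crotonaldehyde, although its 4 probes gave log2 differences from -4.77 to -1.44. COR413IM1, of the chloroplast inner membrane, had 523 after 3-hepten-2-one and 7760.4 after crotonaldehyde. ERD7 had 6181 after 3-hepten-2-one and 82313 after crotonaldehyde. For each of these the 3-hepten-2-one array was the lowest of the 4. The 2 members that went the other way were GOLS1, an enzyme of raffinose sugar synthesis that heat also induces, with 32702 after 3-hepten-2-one and 2982 after crotonaldehyde, and the caleosin RD20, with 14507 after 3-hepten-2-one and 4097 after crotonaldehyde. Both were chosen after their values were seen.

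Among the transcription factors, DDF1 had 197 after 3-hepten-2-one and 9021 after crotonaldehyde, a log2 difference of -5.52. DREB2A, which drives drought and heat genes, had 3809 after 3-hepten-2-one and 41708 after crotonaldehyde, with 22004 after (E)-2-pentenal and 451 in acetonitrile. Its relatives DREB2B and DREB2C had 125 and 18.7 after 3-hepten-2-one, and 949 and 484 after crotonaldehyde. DREB2B and DREB2C after 3-hepten-2-one thus lay near their acetonitrile levels of 179 and 16.8, whereas DREB2A exceeded its own under every volatile. CBF1 was not well above background after 3-hepten-2-one and had 149 after crotonaldehyde, at least 17.9-fold higher there, and it was chosen after its values were seen. COR27, a cold-regulated gene outside the list that feeds into the clock, was likewise dark after 3-hepten-2-one and had 4155 after crotonaldehyde, at least 413-fold higher there.

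Abscisic acid, the hormone of water deficit, had a mixed picture. Of 17 measured genes of its synthesis, breakdown and PP2C phosphatases, 6 were higher after 3-hepten-2-one and 1 was lower, with a median of 0.62. By comparison, 15.8% of all genes were higher and 9.84% lower. Median scaling gave 5 higher and 1 lower, with a median of 0.32. Spike-in scaling gave 4 higher and 4 lower, with a median of -0.35, so the upward lean depended on the scaling. HAI1, a phosphatase induced by the hormone, had 1055 after 3-hepten-2-one and 156 after crotonaldehyde. The synthesis enzyme ABA1 had 16474 after 3-hepten-2-one and 4037 after crotonaldehyde. The breakdown enzymes CYP707A2 and CYP707A4 had 81.6 and 121 after 3-hepten-2-one, and 18.5 and 28.3 after crotonaldehyde. In the percentile scaling PP2CA was the 1 lower member, at 2850.3 after 3-hepten-2-one and 6587 after crotonaldehyde, and it was chosen after its values were seen.

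Genes that plants switch on when iron is short were lower after 3-hepten-2-one, and ferritins, which store iron, were higher. Of 14 measured iron-deficiency genes, 8 were at least 2-fold lower after 3-hepten-2-one and 0 were higher, with a median of -1.99. The leaf bHLH factors that head this response were nearly dark except after crotonaldehyde. BHLH38 had 23.0 after 3-hepten-2-one and 1083 after crotonaldehyde, with 12 after (E)-2-pentenal and 15.7 in acetonitrile. BHLH39 had 23.4 after 3-hepten-2-one and 856 after crotonaldehyde, and BHLH101 had 18.4 after 3-hepten-2-one and 850.0 after crotonaldehyde. The same held for BHLH100, which was not well above background after 3-hepten-2-one and had 2146 after crotonaldehyde, at least 258-fold higher there. AT1G47400, a locus of the list without a name in the reference table, had 131 after 3-hepten-2-one and 3989 after crotonaldehyde.

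Ferritin FER1 had 9687 after 3-hepten-2-one and 214 after crotonaldehyde, with 2169.5 after (E)-2-pentenal and 2039 in acetonitrile. FER4 had 7151 after 3-hepten-2-one and 1548 after crotonaldehyde, and the dimmer FER2 had 63.4 after 3-hepten-2-one and 31.2 after crotonaldehyde, just past 2-fold. The remaining ferritin of the 4 lay within 2-fold. FER1 was highest after 3-hepten-2-one, while FER4 after 3-hepten-2-one stood near its acetonitrile level of 6978. The nicotianamine synthases NAS1 and NAS2, whose product carries iron and other metals through the plant, ran against the iron list and had 1486 and 64.9 after 3-hepten-2-one and were not well above background after crotonaldehyde. The bounds were at least 148-fold and at least 6.44-fold lower after crotonaldehyde, and both genes were chosen after their values were seen. The iron transporter gene IRT1 was not well above background on either array.

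**Figure D3:**
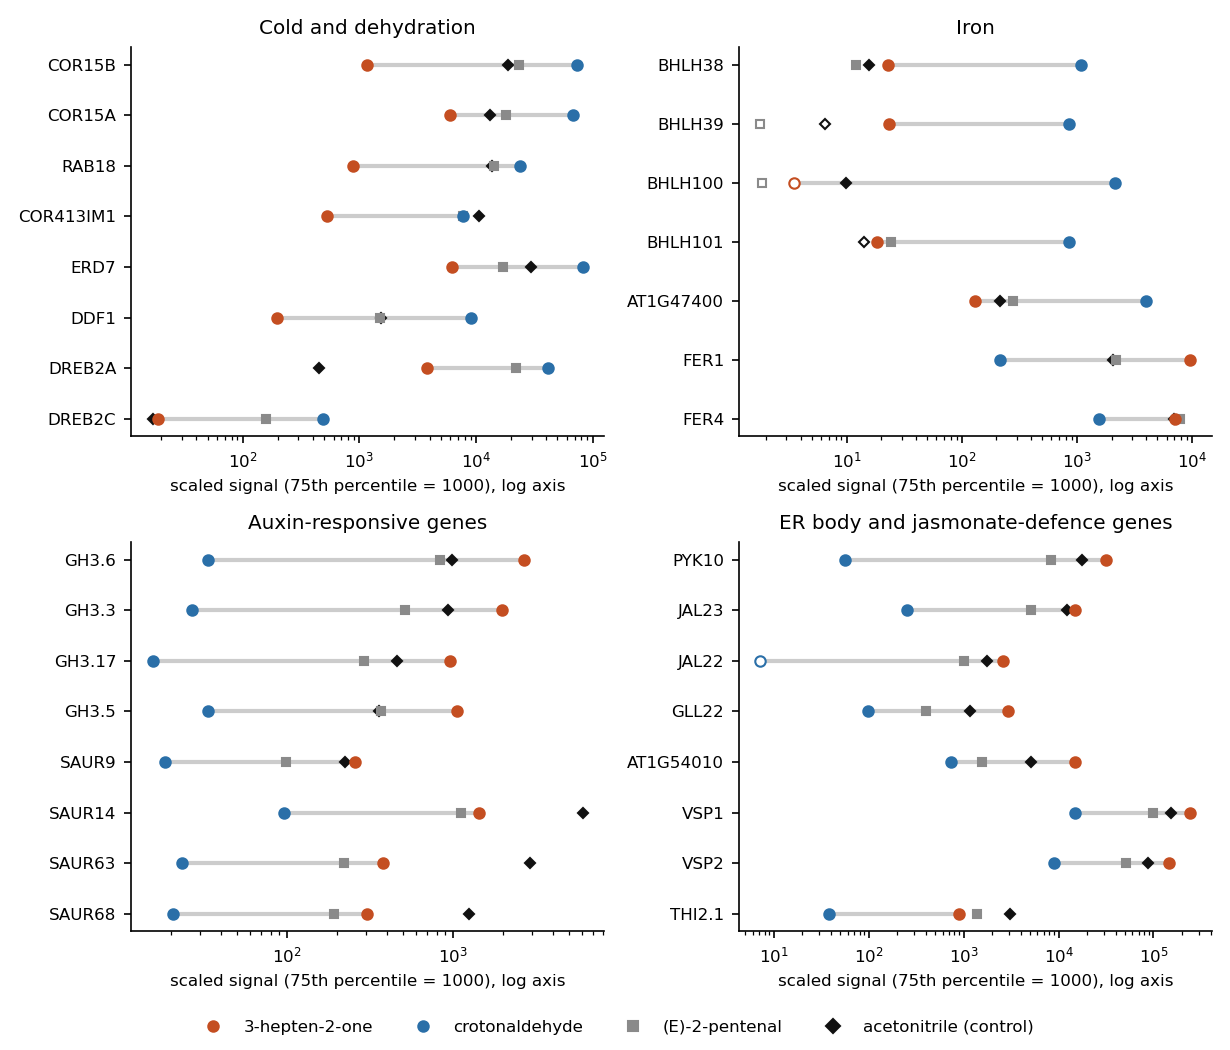
Scaled signal (log axis, 75th percentile set to 1000) of genes of cold and dehydration, iron, auxin response, and ER bodies with jasmonate defence on the 4 arrays, 1 array per group. Grey bars join 3-hepten-2-one to crotonaldehyde, and open symbols were not well above background. Cold and iron-deficiency genes lie to the left after 3-hepten-2-one, and ferritin, auxin, ER body and storage protein genes to the right.

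In the percentile scaling, auxin-responsive genes were higher after 3-hepten-2-one in every measured member past 2-fold. Auxin quickly induces Aux/IAA repressors, GH3 enzymes that conjugate the hormone to amino acids, and SAUR proteins that promote cell expansion. Of 19 measured Aux/IAA and GH3 genes, 14 were at least 2-fold higher after 3-hepten-2-one and 0 were lower, with a median of 1.70. All 8 measured SAUR genes were higher, with a median of 3.74 and a range of 2.68 to 4.03, and 7 more were well above background on the 3-hepten-2-one array alone. A SAUR gene dim on both arrays could not enter the count, and probes of close SAUR relatives may bind one another's transcripts.

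The GH3 enzymes had the widest gaps of this group. DFL1 (GH3.6) had 2697 after 3-hepten-2-one and 33.7 after crotonaldehyde, with 835 after (E)-2-pentenal and 994 in acetonitrile. GH3.3 had 1980.4 after 3-hepten-2-one and 26.7 after crotonaldehyde, GH3.17 had 959 after 3-hepten-2-one and 15.5 after crotonaldehyde, and WES1 (GH3.5) had 1063 after 3-hepten-2-one and 33.6 after crotonaldehyde. On all 4 of these genes 3-hepten-2-one was the highest array and crotonaldehyde the lowest. The SAUR genes had another order. SAUR63 had 383 after 3-hepten-2-one and 23.4 after crotonaldehyde, and both were below 2933 in acetonitrile. SAUR14 had 1449 after 3-hepten-2-one and 95.6 after crotonaldehyde, also below 6069 in acetonitrile, whereas SAUR9 had 258 after 3-hepten-2-one and 18.4 after crotonaldehyde and lay near its acetonitrile level of 225.

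Growth regulators and wall enzymes were also mostly higher after 3-hepten-2-one, with smaller gaps. Of 10 measured PIF and shade-response genes, 7 were higher after 3-hepten-2-one and 0 lower, with a median of 1.27. Median scaling left 4 higher, with a median of 0.97, and spike-in scaling left 2, with a median of 0.29. PIF5, a bHLH factor that promotes elongation in dim light and at night, had 3509.8 after 3-hepten-2-one and 512 after crotonaldehyde, and HFR1, a PIF antagonist, had 86.8 after 3-hepten-2-one and 16.4 after crotonaldehyde. PIF1 and PIF7 differed by 1.85 and 1.41 on the log2 scale, and the second probe of PIF1 gave 0.92. Of 18 measured XTH genes, whose products cut and rejoin wall xyloglucan, 11 were higher and 1 was lower, with a median of 1.32. XTH16 had 8730.3 after 3-hepten-2-one and 430.1 after crotonaldehyde, and XTH20 had 690.2 after 3-hepten-2-one and 87.5 after crotonaldehyde. The 1 lower member was XTH31, at 889.7 after 3-hepten-2-one and 2127 after crotonaldehyde, chosen after its values were seen. XTH6 and XTH15 were 4.94-fold and 5.13-fold higher. For the XTH list, median scaling gave 9 higher and 2 lower, with a median of 1.02. Spike-in scaling gave 5 higher and 4 lower, with a median of 0.34. Among all genes 15.8% were higher and 9.84% lower.

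Jasmonate genes split by role. Jasmonate, the wound hormone, is made from membrane lipids by LOX, AOS, AOC and OPR enzymes, and it lifts the block that JAZ repressors place on MYC2. Enzymes and repressors were mostly within 2-fold or lower after 3-hepten-2-one, whereas defence products were higher. Of 18 measured metabolism genes, 2 were higher and 6 lower, with a median of -0.12. Of 12 measured JAZ genes and MYC2, 0 were higher and 5 lower, with a median of -0.95. Of 9 measured defensin, storage protein and thionin genes, 8 were higher and 0 lower, with a median of 3.85. By comparison, 15.8% of all genes were higher and 9.84% lower. Median scaling put 7 metabolism genes and 8 JAZ and MYC2 genes lower. Spike-in scaling put 12 and 11 lower, with medians of -1.10 and -1.92, and left 7 defence products higher and 1 lower, with a median of 2.87.

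CYP94C1, an enzyme that oxidizes and so inactivates the active hormone, had 1309.7 after 3-hepten-2-one and 30814 after crotonaldehyde, with 1682 after (E)-2-pentenal and 7500.0 in acetonitrile. JAZ7 had 1933 after 3-hepten-2-one and 32551 after crotonaldehyde, and JAZ8 had 469.7 after 3-hepten-2-one and 6035 after crotonaldehyde. The repressors JAZ1 and JAZ6 and the enzymes LOX3 and AOC3 differed less, by -1.39, -1.33, -1.42 and -1.24 on the log2 scale. JMT, which methylates the hormone, was one of the 2 metabolism genes in the other direction, at 1506 after 3-hepten-2-one and 597 after crotonaldehyde. Its probes gave log2 differences of 0.76 to 1.34, so not every probe passed 2-fold. The vegetative storage protein VSP1 had 245784 after 3-hepten-2-one and 15070.1 after crotonaldehyde, and VSP2 had 146295 after 3-hepten-2-one and 8885 after crotonaldehyde. Thionin THI2.1 had 904 after 3-hepten-2-one and 37.9 after crotonaldehyde, below 3112 in acetonitrile. The defensin PDF1.2 had 1815 after 3-hepten-2-one and 57.3 after crotonaldehyde, with 31.3 after (E)-2-pentenal and 1868 in acetonitrile. The 2 aldehyde arrays were thus low in PDF1.2 and the ketone and solvent arrays high, and probes of PDF1 relatives may share transcripts.

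ER body genes were higher after 3-hepten-2-one. ER bodies are compartments of Brassicaceae that hold beta-glucosidases for defence, and jasmonate induces them in leaves. Of 11 measured members, 9 were at least 2-fold higher and 0 lower, with a median of 3.23, and 3 more were well above background after 3-hepten-2-one alone. Besides PYK10, the lectin JAL23 had 14976 after 3-hepten-2-one and 253 after crotonaldehyde. The lipase-like GLL22 had 2958 after 3-hepten-2-one and 98.7 after crotonaldehyde, and AT1G54010 had 14939 after 3-hepten-2-one and 739 after crotonaldehyde. JAL22 had 2609 after 3-hepten-2-one and was not well above background after crotonaldehyde, at least 259-fold lower there, and it was chosen after its values were seen. For JAL23, GLL22 and AT1G54010 the crotonaldehyde array was again the lowest of the 4 and 3-hepten-2-one the highest.

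Genes of the epidermis and its cuticle were also higher after 3-hepten-2-one. Of 20 measured members, 10 were higher and 0 lower, with a median of 1.04. Median scaling left 6 higher, with a median of 0.74, and spike-in scaling left 3 higher and 1 lower, with a median of 0.06. CER1, which makes wax alkanes with CER3, had 10686 after 3-hepten-2-one and 1458 after crotonaldehyde, with 19609.9 after (E)-2-pentenal and 15997 in acetonitrile. CER3 had 15777 after 3-hepten-2-one and 4064 after crotonaldehyde, and MYB94, a factor that drives wax genes, had 244 after 3-hepten-2-one and 40.3 after crotonaldehyde. The epidermal identity factors ATML1 and PDF2, chosen after their values were seen, lay within 2-fold at log2 differences of 0.84 and 0.17. PDF1, which ATML1 is known to activate, thus differed by far more than these factors. The trichome markers GL1 and GL2 given above were lower after crotonaldehyde as well, and their part in the epidermal differences was not tested.

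Light-harvesting chlorophyll proteins, which feed the photosystems, differed by subunit. Of 20 measured genes, 7 were higher after 3-hepten-2-one and 1 was lower, with a median of 0.68, where 15.8% of all genes were higher and 9.84% lower. Median scaling kept these counts, with a median of 0.38. Spike-in scaling gave 4 higher and 3 lower, with a median of -0.30, so the lean of the list depended on the scaling. LHCB2.3 had 83288 after 3-hepten-2-one and 3929 after crotonaldehyde, LHCB2.1 had 7594 after 3-hepten-2-one and 532 after crotonaldehyde, and LHCB3 had 234507 after 3-hepten-2-one and 50755 after crotonaldehyde. LHCB4.3 went the other way, at 1233 after 3-hepten-2-one and 10888 after crotonaldehyde. These families are close in sequence, and the probes of LHCB2.2 alone gave log2 differences from 1.95 to 4.46, a gene chosen after its values were seen.

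Most heat shock genes were above the solvent array under both volatiles, and most were somewhat lower after 3-hepten-2-one than after crotonaldehyde. Small heat shock proteins hold unfolding proteins, and HSP70, HSP90 and HSP101 chaperones refold or disaggregate them. Of 17 measured small heat shock protein genes, 5 were at least 2-fold lower after 3-hepten-2-one and 0 higher, with a median of -0.75. Of 28 measured larger chaperones and co-chaperones, 9 were lower and 0 higher, with a median of -0.68. Most members thus lay within 2-fold, and both medians were short of 2-fold. These figures depended on the scaling. With median scaling 9 of the 17 small heat shock protein genes were lower, with a median of -1.05, and 12 of the 28 larger chaperones, with a median of -0.98. With spike-in scaling 15 of 17 and 24 of 28 were lower, with medians of -1.73 and -1.66. Probes of close relatives in these families may bind one another's transcripts.

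The 5 small heat shock proteins past 2-fold included HSP21 of the chloroplast, at 199.7 after 3-hepten-2-one, 733 after crotonaldehyde, 766 after (E)-2-pentenal and not well above background in acetonitrile. HSP17.4 had 4197 after 3-hepten-2-one and 11428 after crotonaldehyde, AT5G37670 had 4520.4 after 3-hepten-2-one and 12947 after crotonaldehyde, and ATHSP22.0 had 147 after 3-hepten-2-one and 343 after crotonaldehyde. The fifth was AT1G53540, at 26497 after 3-hepten-2-one and 54724 after crotonaldehyde, close to the 2-fold line and chosen after its values were seen. Among the larger chaperones, Hsp70b had 1451 after 3-hepten-2-one and 11492 after crotonaldehyde, with 49.4 in acetonitrile. The co-chaperone BAG6 had 34232 after 3-hepten-2-one and 136058 after crotonaldehyde, HSP70T-2 had 12647 after 3-hepten-2-one and 32826 after crotonaldehyde, and Hsp70-2 had 9741 after 3-hepten-2-one and 25944 after crotonaldehyde. All of these were above their acetonitrile level under both volatiles.

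Heat shock factors, the transcription factors of this response, gave 2 higher and 3 lower of 18 measured, with a median of -0.41. Over all genes 15.8% were higher and 9.84% lower, so these counts lay near the background, and median scaling turned them to 1 higher and 7 lower. HSFA3, which DREB2A activates, had 281 after 3-hepten-2-one and 1420.0 after crotonaldehyde, with 767 in acetonitrile. HSFA8 and HSFA1E differed by -1.61 and -1.34 on the log2 scale, and HSFB4 was higher after 3-hepten-2-one, at 242 after 3-hepten-2-one and 35.6 after crotonaldehyde. In the endoplasmic reticulum folding list 5 of 20 were lower after 3-hepten-2-one and 0 higher, with a median of -0.69. Median scaling put 9 of the 20 lower, with a median of -0.99, and spike-in scaling put 18 lower, with a median of -1.67. P58IPK, a DnaJ co-chaperone of the ER, had 21086 after 3-hepten-2-one and 131646 after crotonaldehyde, and the dim BIP3 had 12.3 after 3-hepten-2-one and 55.1 after crotonaldehyde. PDIL1-2 and CRT3 differed by -1.30 and -1.23.

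In the percentile scaling used here, proteasome and reference genes stood at nearly the same level under both volatiles, and some NAC factors did not. None of the 31 measured proteasome subunits passed 2-fold, with a median of 0.16 and a range of -0.23 to 0.59. None of 12 measured reference genes did, with a median of 0.05. Median scaling also left both lists within 2-fold, with medians of -0.14 and -0.25. Spike-in scaling put 6 of the 31 subunits and 6 of the 12 reference genes lower after 3-hepten-2-one, with medians of -0.82 and -0.93. Whether all these genes were level thus depended on the scaling. Of 14 measured NAC factors, 1 was higher after 3-hepten-2-one and 3 were lower, with a median of -0.27, where 15.8% of all genes were higher and 9.84% lower. ATAF2, a wound-responsive NAC factor chosen after its values were seen, had 99650.2 after 3-hepten-2-one and 95561 after crotonaldehyde, with 93285 after (E)-2-pentenal and 8525 in acetonitrile. With 1 array each, no interval of such a difference could be formed, so these values do not show that the compounds act alike. The 3 NAC factors that were lower are the jasmonate- and drought-linked NAC3 (ANAC055), RD26 and NAC019. NAC3 had 202 after 3-hepten-2-one and 2999.6 after crotonaldehyde, RD26 had 2796 after 3-hepten-2-one and 14401 after crotonaldehyde, and NAC019 had 727 after 3-hepten-2-one and 1688 after crotonaldehyde. ANAC087 was the higher one, at 503 after 3-hepten-2-one and 67.6 after crotonaldehyde.

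**Figure D4:**
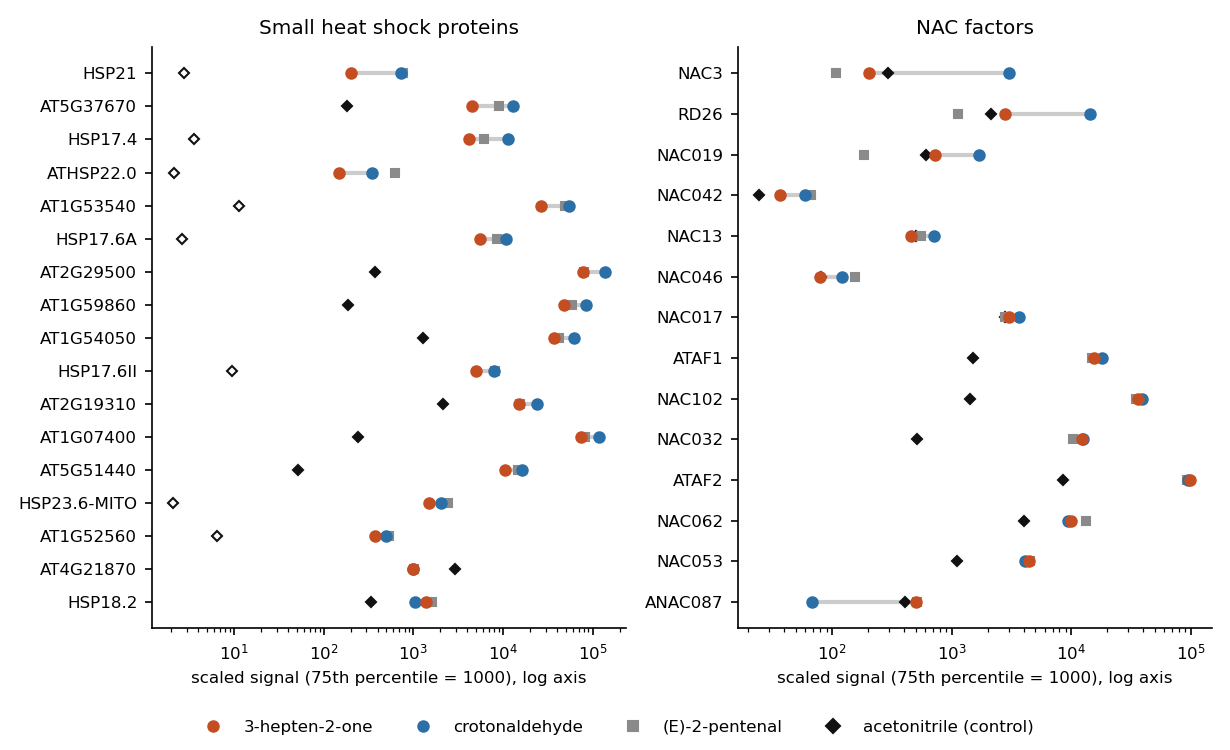
Scaled signal (log axis, 75th percentile set to 1000) of the measured small heat shock protein and NAC genes on the 4 arrays, 1 array per group, ordered by difference. Open symbols were not well above background. Most pairs of 3-hepten-2-one and crotonaldehyde points lie within 2-fold of each other and away from the acetonitrile point. Pairs past 2-fold are NAC3, RD26, NAC019, ANAC087 and 5 small heat shock protein genes, of which HSP21 has the widest gap. NAC019 had 727 after 3-hepten-2-one, near its 615 in acetonitrile.

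Fast transcription factors of stress differed gene by gene, where 15.8% of all genes were higher and 9.84% lower. The ZAT and AZF zinc finger list had 4 genes higher and 0 lower after 3-hepten-2-one of 11 measured, with a median of 0.10. Spike-in scaling gave 1 higher and 4 lower. ZAT11 had 3735 after 3-hepten-2-one and 216 after crotonaldehyde, with 1199.8 after (E)-2-pentenal and 25.9 in acetonitrile, so that it exceeded the solvent under all the volatiles. ZAT7 and the loci AT3G46080 and AT2G28200 differed by 1.06, 1.91 and 1.42 on the log2 scale. The ethylene response factors gave 4 higher and 4 lower of 17, with a median of -0.33, and spike-in scaling gave 3 higher and 10 lower. RRTF1, a factor of redox and jasmonate responses, had 1615 after 3-hepten-2-one and 31567 after crotonaldehyde, while TDR1 (ERF98) had 6515 after 3-hepten-2-one and 473 after crotonaldehyde. ERF5 and ERF15 were higher by 2.14 and 2.06. RRTF1 and TDR1 therefore differed in opposite directions by more than 10-fold each.

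Ethylene is made from ACC by ACS and ACO enzymes. Of 8 measured synthesis genes 3 were higher after 3-hepten-2-one and 0 lower, with a median of 0.72, and all 3 were ACS genes. The shares over all genes were 15.8% higher and 9.84% lower. Spike-in scaling left 2 synthesis genes higher and 0 lower, with a median of -0.26. ACS11 had 2873 after 3-hepten-2-one and 169 after crotonaldehyde, with 1039 in acetonitrile, ACS7 had 136 after 3-hepten-2-one and 26.4 after crotonaldehyde, and ACS8 had 174 after 3-hepten-2-one and 50.6 after crotonaldehyde. The wound, touch and WRKY list gave 8 higher and 3 lower of 22, with a median of -0.01. Spike-in scaling turned this list to 2 higher and 11 lower, with a median of -0.99. WRKY53, a senescence and defence factor, had 3356 after 3-hepten-2-one and 598 after crotonaldehyde, and WRKY30 had 946 after 3-hepten-2-one and 154 after crotonaldehyde. The calmodulin-like CML37 went the other way, at 9509 after 3-hepten-2-one and 40777 after crotonaldehyde, and its relative CML39 had 2021 after 3-hepten-2-one and 645 after crotonaldehyde.

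In the percentile scaling, detoxification genes were more often higher after 3-hepten-2-one. Glutathione transferases couple electrophiles to glutathione, and 13 of 30 measured were higher and 2 lower, with a median of 0.83. The shares over all genes were 15.8% higher and 9.84% lower. Median scaling left 8 transferases higher and 2 lower, with a median of 0.53. Spike-in scaling turned the split to 5 higher and 9 lower, with a median of -0.15. GSTU25 had 359 after 3-hepten-2-one and 12 after crotonaldehyde, with 61.8 after (E)-2-pentenal and 10.6 in acetonitrile. GSTU24 had 4341 after 3-hepten-2-one and 633 after crotonaldehyde, with 163 in acetonitrile. GSTU8 had 997 after 3-hepten-2-one and 68.7 after crotonaldehyde, and GSTU17 (ERD9) had 8585 after 3-hepten-2-one and 355 after crotonaldehyde in its brightest probe and a log2 difference of 2.08 in another. GSTU25 and GSTU8 after crotonaldehyde were thus near or below the solvent array, whereas GSTU24 was above it under both volatiles.

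Enzymes that reduce, oxidize or glycosylate carbonyls and foreign compounds gave 8 higher and 2 lower of 24, with a median of 0.57. Median scaling gave 6 higher and 3 lower, with a median of 0.27. Spike-in scaling turned the split to 3 higher and 6 lower, with a median of -0.41. The chloroplast aldo-keto reductase ChlAKR had 328 after 3-hepten-2-one and 28.5 after crotonaldehyde, with 64.7 in acetonitrile. The glucosyltransferases UGT74E2, UGT73C1 and UGT73C6 had 12598, 209 and 97.0 after 3-hepten-2-one, and 2426, 43.3 and 26.6 after crotonaldehyde. By contrast AER, which reduces the double bond of unsaturated carbonyls, had 8626 after 3-hepten-2-one and 8816 after crotonaldehyde, with 768 in acetonitrile. OPR1, a reductase of similar substrates, differed by -0.25 on the log2 scale. AER and OPR1 were chosen after their values were seen.

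Sulfur assimilation, which supplies cysteine for glutathione, was higher after 3-hepten-2-one in 8 of 14 measured genes and lower in 0, with a median of 1.45. Spike-in scaling left 3 higher and 1 lower, with a median of 0.47. ATSDI1, a gene of sulfur deficiency, had 9548 after 3-hepten-2-one and 1016 after crotonaldehyde, with 2270.4 in acetonitrile. SERAT2;1, which makes the cysteine precursor O-acetylserine, had 60928 after 3-hepten-2-one and 12187 after crotonaldehyde, with 2126 in acetonitrile. LSU1 had 12884 after 3-hepten-2-one and 2315 after crotonaldehyde, a log2 difference of 2.48 that was larger in its other probe. The sulfate transporter SULTR1;2 had 118 after 3-hepten-2-one and 32.2 after crotonaldehyde. SERAT2;1 and LSU1 exceeded the solvent under both volatiles, with the ketone above the aldehyde. Of 19 measured peroxide and superoxide genes, 4 were higher and 1 was lower, with a median of 0.17, which is near the 15.8% higher and 9.84% lower over all genes. Catalase CAT2 had 47707 after 3-hepten-2-one and 7114 after crotonaldehyde, the kinase OXI1 had 3423 after 3-hepten-2-one and 679 after crotonaldehyde, and the iron superoxide dismutase FSD1 had 60594 after 3-hepten-2-one and 22903 after crotonaldehyde. The mitochondrial NDB2 was lower, at 1249.8 after 3-hepten-2-one and 3657 after crotonaldehyde.

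Genes of salicylic acid, a hormone of defence against pathogens, were level or lower after 3-hepten-2-one. Of 16 measured, 6 were lower and 0 higher, with a median of -0.57, where 9.84% of all genes were lower and 15.8% higher. Median scaling put 7 lower, with a median of -0.87, and spike-in scaling put 12 lower, with a median of -1.55. NIMIN2, which binds the receptor NPR1, had 471 after 3-hepten-2-one and 2627 after crotonaldehyde, and SARD1, a factor for hormone synthesis, had 220.3 after 3-hepten-2-one and 1146 after crotonaldehyde. NIMIN1 differed by -1.35 and the dim marker PR1 by -2.42 on the log2 scale. Indole defence genes gave 3 higher and 0 lower of 9, with a median of 0.38. Median scaling left 1 indole gene higher, with a median of 0.08. Spike-in scaling gave 1 higher and 1 lower, with a median of -0.60. CYP81F2, which modifies indole glucosinolates, had 1512 after 3-hepten-2-one and 235 after crotonaldehyde, while CYP79B3 and MYB34 differed by 1.21 and 1.05.

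**Figure D5:**
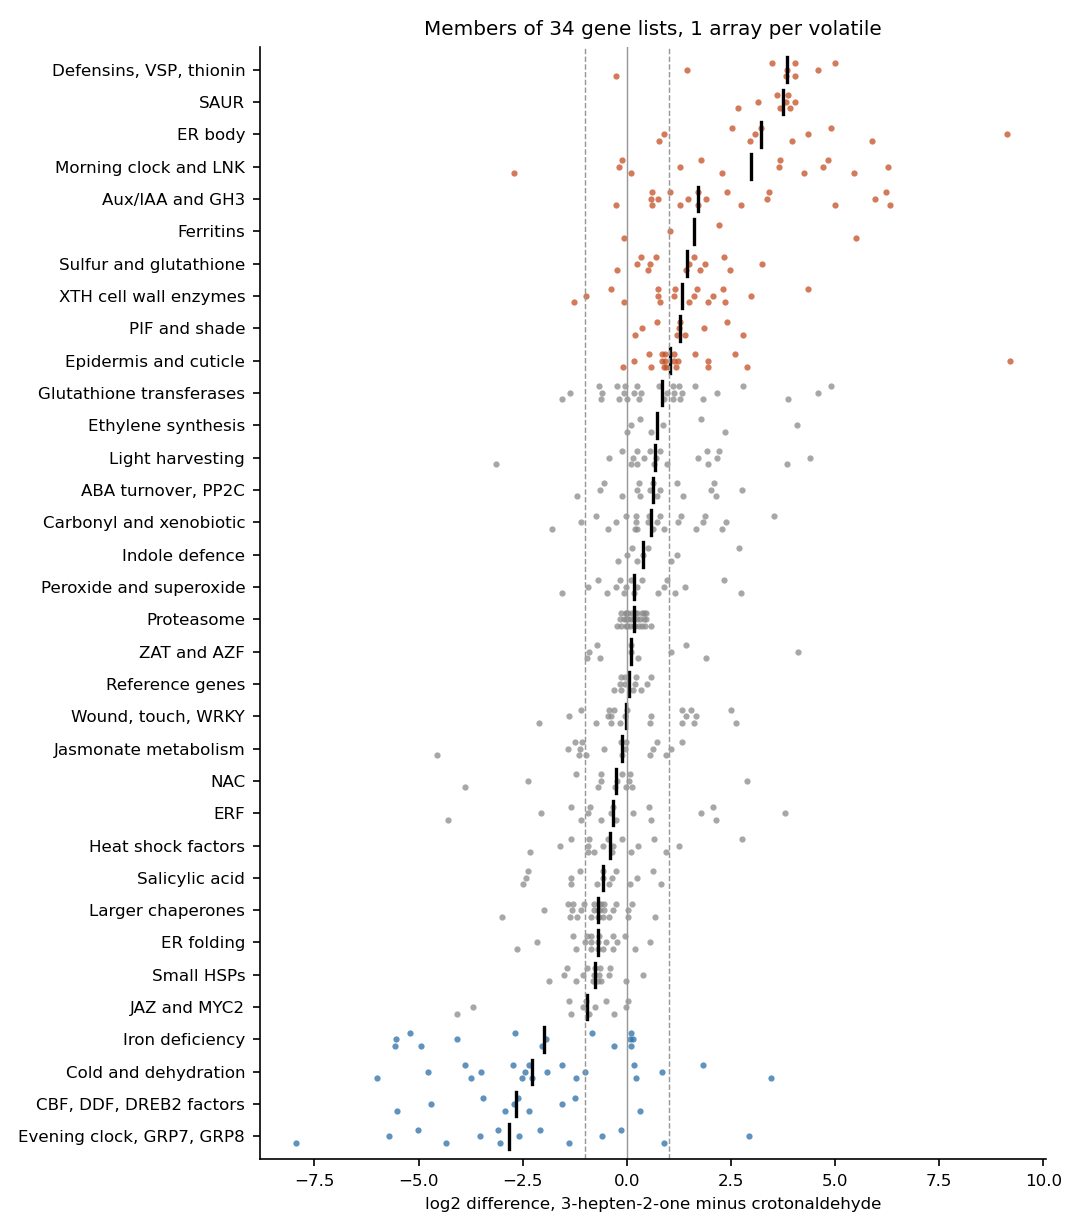
Log2 difference, 3-hepten-2-one minus crotonaldehyde, of each measured member of 34 gene lists (points) with the median of the list (black bar), from 1 array per volatile. Dashed lines mark 2-fold. Medians reach 3.85 for defensins and storage proteins and -2.82 for the evening clock. In the percentile scaling drawn, all proteasome and reference genes stay within 2-fold, which did not hold with spike-in scaling.

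Genes above background on one array alone were counted apart, since their difference is only a bound. There were 1158 such genes on the 3-hepten-2-one array, of which 725 exceeded the dim limit of the crotonaldehyde array by at least 2-fold, and 609 on the crotonaldehyde array, of which 270 exceeded the limit of the other. The greatest bound was that of CYP81F4, a cytochrome P450 of indole glucosinolate modification, at 39164 after 3-hepten-2-one and not well above background after crotonaldehyde. That is at least 3887-fold higher after 3-hepten-2-one, and the gene had 7597 after (E)-2-pentenal and 16237 in acetonitrile. AT4G22513 and AT4G22490, which have no name in the reference table, were at least 423-fold and at least 409-fold higher. DFR, an enzyme of anthocyanin synthesis, had 3975 after 3-hepten-2-one and was at least 394-fold higher there. In the other direction, after COR27, BHLH100 and PRR3, the next was MPC, at least 40.8-fold higher after crotonaldehyde. In all, 14 of the 38 gene lists had a median past 2-fold, and the 4 of those on the lower side were the cold, CBF and DREB2, iron-deficiency and evening clock lists.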

How the data were processed

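Per the labels' protocols, Cy3-labelled cRNA of pooled plants was hybridized to one-colour Agilent arrays, 1 array a group. The deposited scanner files give, per the file headers, the processed signal of each spot as a linear intensity after background subtraction by Feature Extraction 10.10.1.1. Version 9.1 stands in the submitters' processing notes. The authors' deposited value table held the same intensity times 1 constant per array (1.38 for 3-hepten-2-one, 1.98 for crotonaldehyde, with array medians of 352 and 280.5), and how that constant was set is not stated. From 43803 non-control spots, 34476 were matched through the table of TAIR10 loci and RefSeq names to 1 gene, spots of a probe were averaged, and the brightest probe stood for its gene. Each array's log2 processed signal was taken minus its 75th percentile and the crotonaldehyde value was subtracted from the 3-hepten-2-one value. Genes had to be well above background on both arrays. A gene lit on one array alone got a bound against the higher of its own dim signal and the lowest well-above-background signal of that array. No saturated spot was found, and the number of arrays limits the precision. No test was possible with 1 array a group, and the size rule was 2-fold.

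The genes named are the 10 highest and 10 lowest, the 4 greatest bounds each way, and up to 4 members past 2-fold of each of 38 lists (634 genes, 630 on the array, 565 measured). Other genes named are marked as chosen after their values were seen. The comparison, the members and the lists were chosen with earlier results of these data known. Tools were limma 3.58.1 in R 4.3.3 for the alternatives and Python 3.11.15, and the scripts were tested on simulated data. A planned search of promoters was not run, since no promoter sequence was used here. No coordinates are given because the gene table and the array annotation name different assemblies.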

Additional observations from a re-analysis of the deposited data

How the results depend on the processing

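The count of genes at least 2-fold higher after 3-hepten-2-one stayed within 1.5 times of 2948 under 8 of the 11 other settings, and the count at least 2-fold lower within 1.5 times of 1836 under 6 of them. Both counts stayed within that range with normexp background correction, quantile scaling, cyclic loess, the authors' scaled values, a background filter on all 4 arrays and the mean over probes. Median scaling gave 3204 lower. Keeping dim genes gave 4036 lower. Taking only genes above the median signal left 1006 higher and 897 lower of 9330 genes. A 1.5-fold rule gave 4498 higher and 3971 lower, and a 4-fold rule 1131 higher and 375 lower. The number of lists with a median past the size rule was 23 under the 1.5-fold rule and 7 under the 4-fold rule, and 14 or 15 under the rest of these settings. Median scaling took the PIF (0.97) and epidermis (0.74) lists off that number and added the JAZ (-1.25) and small heat shock protein (-1.05) lists. Keeping dim genes took off iron deficiency (-0.83) and added glutathione transferases (1.03), and the mean over probes added light harvesting (1.07). Setting the arrays to the spike-in probes, added after their values were seen, gave 1147 higher, 9673 lower and 17 lists. No direction of a list past 2-fold or of a named gene past 2-fold turned round under any alternative run. Of 143 named genes, between 96 and 143 kept their call, and the lowest figure came from dropping dim genes. No paired analysis was possible because each group had 1 array. Leaving out a replicate was not possible for the same reason. Signal over background limits genes near the dim end of the crotonaldehyde array, where the lowest well-above-background signal was 10.6.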

Other observations

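A further 3 gene groups were put together after the differences had been seen, so their counts are descriptions only. Flavonoid and anthocyanin genes were higher after 3-hepten-2-one than after crotonaldehyde. Of 12 measured members, 9 were at least 2-fold higher and 1 was lower, with a median log2 difference of 2.48. Chalcone synthase CHS, which opens the pathway, had a scaled signal of 7732 after 3-hepten-2-one and 492 after crotonaldehyde, with 2459 after (E)-2-pentenal and 2436 in acetonitrile. F3H had 4361 after 3-hepten-2-one and 208 after crotonaldehyde, and the regulator MYB113 had 884 after 3-hepten-2-one and 14.9 after crotonaldehyde. The later anthocyanin enzymes DFR, LDOX and UF3GT were not well above background after crotonaldehyde and had 3975, 404 and 1949 after 3-hepten-2-one. On the (E)-2-pentenal array these 3 had 1285, 126 and 824, and in acetonitrile 1246, 138 and 844, so only on the crotonaldehyde array were they not well above background. Whether the plants of that array matched the others in age or harvest time was not tested.

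Regulators of trichomes, the leaf hairs, went the same way. Of 9 measured, 8 were higher after 3-hepten-2-one and 0 lower, with a median of 2.60, and 2 more, GL1 and EGL3, were well above background after 3-hepten-2-one alone. TTG2 had 156 after 3-hepten-2-one and 12.1 after crotonaldehyde, CPC had 448 after 3-hepten-2-one and 32.1 after crotonaldehyde, and MYB23 had 1013 after 3-hepten-2-one and 97.3 after crotonaldehyde, with 1046 after (E)-2-pentenal and 993 in acetonitrile. TTG1, the WD-repeat partner shared by the trichome and anthocyanin regulators, lay within 2-fold at 3669.6 after 3-hepten-2-one and 2462 after crotonaldehyde. Glucosinolate genes differed less, with 6 higher and 1 lower of 18 measured and a median of 0.83. Their regulator MYB29 had 1566 after 3-hepten-2-one and 348 after crotonaldehyde, whereas CYP81F4 was dark after crotonaldehyde only.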
